A study of Mus musculus with 6 samples.

Results

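Axon guidance ligands and receptors were examined in mouse dental follicle cells. The 66 genes were taken by symbol from the 17213 genes of the count table: semaphorins of classes 3 to 7, plexins, neuropilins, ephrins, Eph receptors, Slits, Robos, netrins and Unc5 receptors. The rule reads symbols only, but it was set with earlier results of these data known. They comprise 35 ligands and 31 receptors, of which 63 passed the filter on low counts and were tested. Epha6, Sema3g and Slit1 did not pass it and are given by their counts. Epha10 and Plxnb3 have symbols of the same form but are not in the count table, and they were at 0 in all 6 libraries of a larger table of estimated counts.

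The dental follicle is a sac of connective tissue that encloses each tooth before it erupts. Cells that express PTHrP, the peptide encoded by Pthlh, and carry the red reporter tdTomato were sorted from mandibular molars of mice at postnatal day 8. The 3 Het-labelled libraries have the genotype Pth1r(+/-) and the 3 labelled KO have Pth1r(-/-), for the receptor of PTH and PTHrP. The series text calls both genotypes conditional and starts the deletion with tamoxifen at day 3, whereas the sample descriptions give day 8. Both groups thus received tamoxifen and carried the reporter, and both lack at least 1 working copy of Pth1r by their labels, so no wild-type library is in the comparison. The line that drives the reporter and the number of animals behind a library were not among the sources used here. The comparison asks how expression in these cells differs between the genotypes.

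Axon guidance proteins are ligands and receptors that steer growing nerve fibres by attraction or repulsion, and many non-neuronal tissues use them too, for cell migration, boundary formation and blood vessel growth. Secreted class 3 semaphorins act mostly through neuropilins paired with plexins, membrane semaphorins act on plexins directly, ephrins on one cell bind Eph receptors on the next, Slits bind Robos, and netrins bind Dcc, neogenin and Unc5 receptors. In teeth and bone, semaphorin 3A is known to repel nerve fibres from the developing tooth, and ephrin-B2 with EphB4 is known as a signal between bone-resorbing and bone-forming cells.

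Library totals ranged from 34019925 to 66147200 counts, and the 66 genes held 0.242 to 0.321% of them. The first principal component of all genes, with 38.6% of the variance, separated Het replicate 2 from the other 5 libraries. The targeted gene went against the labels. Pth1r was at 371, 286 and 346 CPM (counts relative to the library total after TMM scaling) in the Het-labelled libraries and at 961, 608 and 472 CPM in the KO-labelled ones. Its groups did not overlap, with a log2 fold change of 1.02 (SE 0.28, 95% interval 0.40 to 1.65). The edgeR unadjusted p was 0.00489, the edgeR adjusted p 0.740 and the DESeq2 adjusted p 0.0564. A count over the whole gene says nothing of the deleted exons. All differences below are therefore of the KO-labelled libraries against the Het-labelled ones. Separate animals are not stated for the libraries, and p-values therefore reflect the spread of these libraries only, which may be technical.

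Most of the family had counts in these libraries. Dental epithelial markers were also high in every library, with Amelx at 1751 to 3341 CPM and Ambn at 1493 to 6067 CPM. A level is therefore not assigned to a cell type here. Of the 66 genes, 58 had counts in all 6 libraries, and 60 to 65 had counts in any given library. On the authors' FPKM scale, which divides by gene length and so allows levels of different genes to be compared, 53 genes had a mean of 1 or more and 20 a mean of 10 or more, with a median of 5.24. Ligands made up 58.3 to 66.6% of the summed FPKM of all members in the 6 libraries. Ephrins alone made up 28.8 to 39.3%, Eph receptors 19.4 to 26.0%, semaphorins 16 to 20.4% and plexins 5.94 to 7.84%. The 6 highest genes by mean FPKM were Efna1 (63.0), Efna2 (57.9), Efnb1 (47.0), Epha3 (42.7), Sema3b (41.1) and Ephb4 (34.7), so 5 of the 6 were ephrins or Eph receptors. Exons of 14 members overlap exons of another gene, for 13 of them on the other strand only. The strand setting of the counting is not given in the sources used here, and reads of such pairs cannot be told apart where they overlap.

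**Figure D1:**
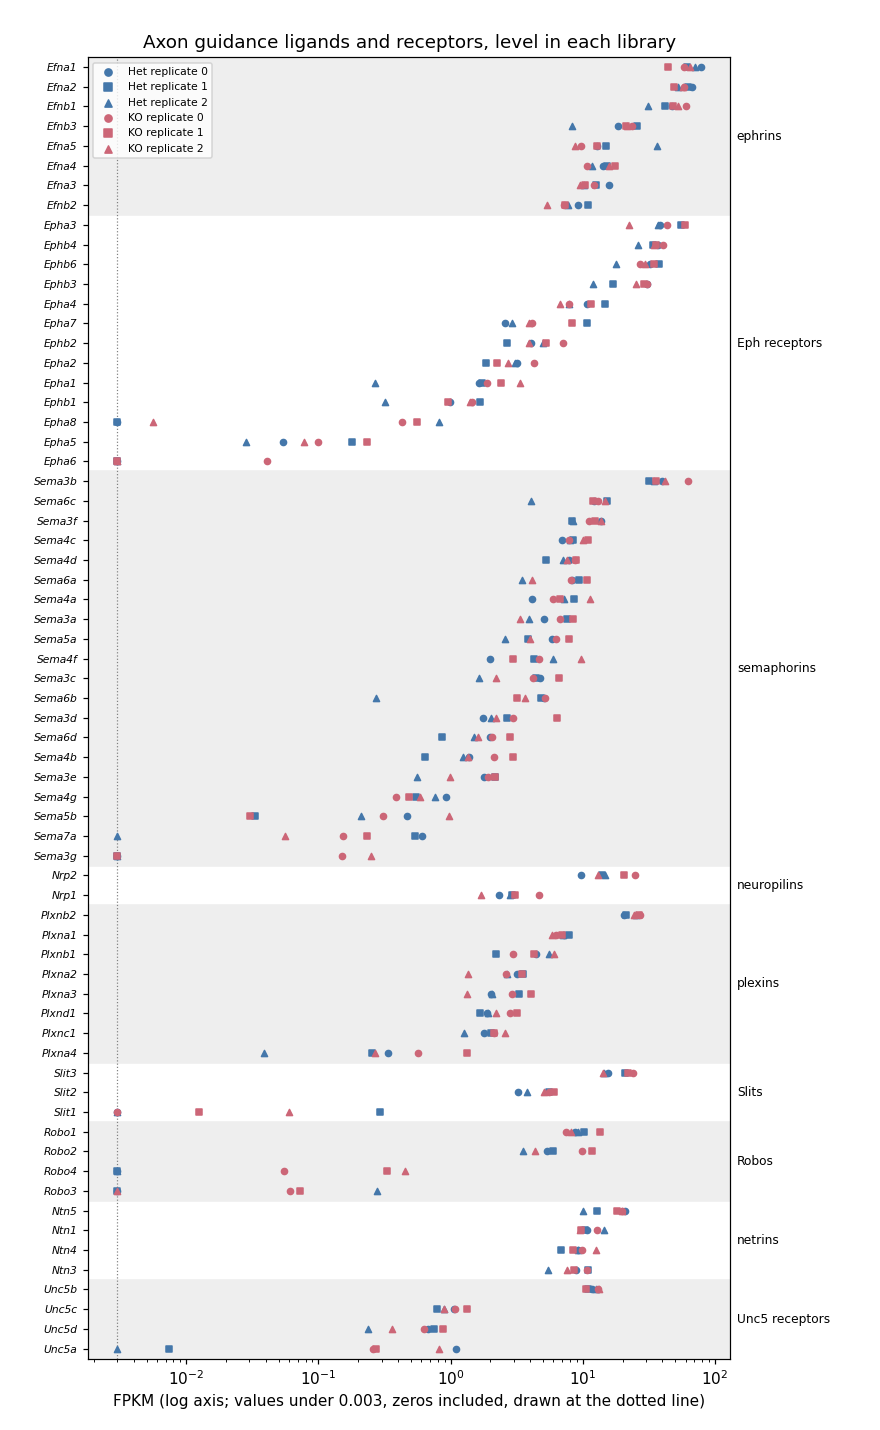
FPKM of each of the 66 genes (rows, grouped by family and ordered by mean) in each library (points; blue Het, red KO; shape gives the replicate number) on a log axis. The ephrins lie highest as a family, with 7 of 8 at a mean of 10 FPKM or more, whereas Robo4, Robo3, Slit1, Sema3g and Epha6 lie at the low end.

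No member passed in edgeR and 1 passed in DESeq2, and more members had higher than lower values in the KO-labelled libraries. With edgeR's quasi-likelihood test, 0 of the 63 tested members passed an adjusted p of 0.05, as did 0 of 14632 genes (0%). DESeq2 called 1 member, Robo4, against 87 of 17084 genes (0.509%, or 0.386% for genes called higher). An unadjusted p under 0.05 in edgeR was found for 4 members (6.35%), against 4.29% of all genes. Robo4 and Robo2 were higher, where the share of all genes was 2.58%, and Efnb2 and Efna5 were lower, where it was 1.71%. Robo4, without counts in the Het-labelled libraries, had passed the filter on low counts through the KO-labelled ones alone. All 3 libraries of one group lay above all 3 of the other in CPM for 10 members (15.9%), against 10.7% of all genes. Of these, 7 were higher in the KO-labelled libraries (11.1%, against 5.84%): Epha1, Robo2, Robo4, Slit2, Efnb1, Plxnc1 and Sema4d. The other 3 were lower (4.76%, against 4.83%): Efna1, Efnb2 and Sema4g. In FPKM 5 of the 10 were also apart in the same direction, which is 7.94% of the members tested against 6.46% of all genes: Epha1, Robo4, Efnb1, Efnb2 and Plxnc1. The scales did not match equally well in all libraries. Over the more abundant genes, the rank correlation of gene-centred log CPM and FPKM was 0.641 for KO replicate 2 and 0.860 to 0.896 for the others.

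Fitted values were higher in the KO-labelled libraries for 48 of the 63 members (76.2%), against 49% of all genes. The median log2 fold change was 0.24, against -0.0095 over all genes tested. The median absolute log2 fold change was 0.29 for the members and 0.26 for all genes, with a median SE of 0.33 and 0.31. Het replicate 2 weighed on the direction. It held the lowest value for 26 members (41.3%), against 29.6% of all genes, and the highest for 4 (6.35%), against 28%. Without it 40 of 65 members (61.5%) had higher fitted values and the median was 0.13, against 50.8% and 0.0058 over all genes. KO replicate 1 held the highest value for 18 members (28.6%, against 16.6% of all genes), and without it the count was 43 of 65 with a median of 0.17. The 95% interval of the log2 fold change excluded 0 for 4 members, lay wholly between -1 and 1 for 28, and lay within a 1.5-fold change either way for 3 (Robo1, Unc5b and Efna2). For the other tested members the interval reached beyond a 1.5-fold change in at least 1 direction.

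**Figure D2:**
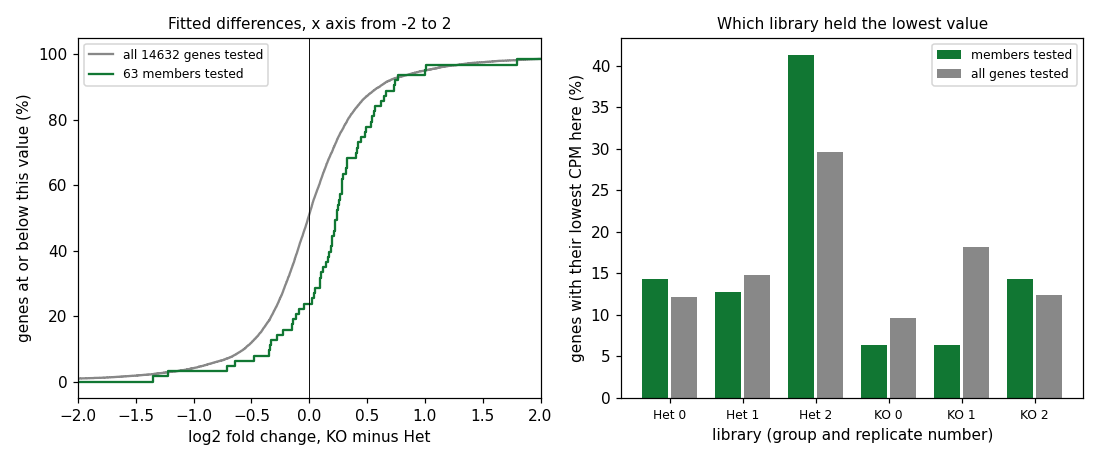
Left, the share of genes (y axis, %) at or below each fitted log2 fold change (x axis) for the 63 members (green) and all 14632 genes tested (grey); right, the share of genes (y axis, %) whose lowest CPM was in each library. The green curve lies to the right of the grey one around 0, where 23.8% of members are below 0, and the green bar of Het replicate 2 reaches 41.3% against 29.6% for all genes.

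Ephrins were the family with the opposite lean. Ephrin-A proteins are held to the membrane by a lipid anchor and ephrin-B proteins span it. Of the 8 ephrin genes, all tested, the KO-labelled libraries had lower fitted values for 5 and higher ones for 3 (median log2 fold change -0.22). Within the ephrin-A genes 4 of 5 were lower (median -0.28). Their summed FPKM was 189, 167 and 182 in the Het-labelled libraries and 149, 134 and 156 in the KO-labelled ones, so every KO library lay below every Het library. The sum of Het replicate 2 includes Efna5, whose high level in that library is given below. No sum without Efna5 was taken, so how far the order depends on that library was not tested. Summed over all 8 ephrins the groups overlapped, at 264, 246 and 229 against 240, 211 and 235 FPKM.

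Efnb2 (chromosome 8, minus strand, 8617434 to 8661242 in mm10) encodes ephrin-B2, the ligand of EphB4. It was at 39.7, 45.2 and 45.1 CPM in the Het-labelled libraries and at 31.2, 30.9 and 31.1 CPM in the KO-labelled ones. The groups did not overlap, in CPM or in FPKM, and the 3 KO values lay within 1 CPM of each other. Mean levels were 43.3 ± 3.15 CPM and 31.0 ± 0.154 CPM (SD, n = 3 each), a log2 fold change of -0.48 (SE 0.19, 95% interval -0.91 to -0.053; edgeR unadjusted p = 0.0316, adjusted p = 0.976). Markers of pericytes and smooth muscle summed to lower values too, at 960 to 1119 CPM in the Het-labelled libraries and 666 to 786 CPM in the KO-labelled ones. Most of that sum was Acta2 (means 746 and 527 CPM) and Tagln (168 and 87.5 CPM). Both had groups apart. DESeq2 called Tagln (adjusted p = 0.00886, edgeR adjusted p = 0.634) and did not call Acta2 (DESeq2 adjusted p = 0.179). Myh11 and Mcam also had lower KO means. The KO mean was higher for 2 of 6, Cspg4 (33.5 and 60.3 CPM) and Rgs5 (5.86 and 7.90 CPM), with overlapping groups. Endothelial markers, with a higher KO mean for 2 of 7, summed to 15.1 to 20.1 and 6.17 to 12.5 CPM. The part of these cell types in the Efnb2 difference was not tested. Efna1, the ephrin with the highest level, was at 111, 92.3 and 95.5 CPM against 83.6, 66.2 and 85.1 CPM. Its groups were apart in CPM and overlapped in FPKM (log2 fold change -0.35, SE 0.19; edgeR unadjusted p = 0.0992). Efna2 was at 112 ± 12.2 against 101 ± 13.6 CPM (SD, n = 3 each), a difference within the spread between libraries.

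Efna5 had the largest fitted difference of the ephrins, and 1 library set it. It was at 67.7, 73.0 and 285 CPM in the Het-labelled libraries and at 50.4, 64.0 and 68.1 CPM in the KO-labelled ones. Het replicate 2 was alone in its level, and the other 5 libraries overlapped. The log2 fold change of -1.22 (SE 0.51; edgeR unadjusted p = 0.0415) became -0.20 without that library. Efnb1, an X-linked ephrin-B gene, went the other way at 143, 125 and 91.0 CPM against 185, 148 and 146 CPM. Its groups did not overlap in CPM or in FPKM, with a log2 fold change of 0.42 (SE 0.22; edgeR unadjusted p = 0.0883). Efnb3 was higher by 0.32, Efna4 by 0.09 and Efna3 lower by 0.28 on the log2 scale, all with overlapping groups; the Efnb3 difference was -0.02 without Het replicate 2.

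Eph receptors are the receptor tyrosine kinases for ephrins, and they split into an A class and a B class by their preferred ligands. Fitted values were higher for 9 of the 12 tested and lower for 3 (median log2 fold change 0.27), and 0 passed in edgeR. All 5 EphB genes were higher, by 0.023 to 0.54. The direction for Ephb6 turned to -0.28 and that for Ephb1 to -0.11 without Het replicate 2. Of the 7 tested EphA genes 4 were higher. Epha3, the most abundant Eph receptor, was at 160, 216 and 200 CPM against 181, 239 and 121 CPM, and its groups overlapped fully (log2 fold change -0.088, 95% interval -0.68 to 0.50). Ephb4, the receptor of ephrin-B2, was at 155, 145 and 93.7 CPM against 174, 156 and 120 CPM. Ephb6, a member without kinase activity, was at 119, 147 and 55.5 CPM against 104, 137 and 85.7 CPM. In both genes Het replicate 2 was lowest and the remaining libraries overlapped.

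Among the less abundant receptors, Epha1 was apart between groups at 5.52, 6.04 and 0.815 CPM against 6.48, 8.53 and 9.89 CPM, with a gap of less than 1 CPM. Its log2 fold change of 1.01 (SE 0.67) was 0.53 without Het replicate 2. Its exons share up to 236 bases with those of Zyx on the other strand. Ephb3 was at 123, 69.6 and 39.7 CPM against 127, 119 and 79.5 CPM (0.49, SE 0.38), and Ephb2 at 19.3, 12.7 and 19.9 CPM against 34.9, 25.4 and 15.0 CPM (0.54). Epha4, which binds ephrins of both classes, was at 71.0, 93.2 and 66.7 CPM against 52.2, 73.9 and 57.6 CPM (-0.33, SE 0.22). In these 3 genes the groups overlapped. Epha6 had 11 counts in KO replicate 0 and 0 in the other 5 libraries.

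Semaphorins leaned towards higher values: 17 of the 19 tested had higher fitted values in the KO-labelled libraries, 2 had lower ones, and the median log2 fold change was 0.28. Leaving out Het replicate 2 turned the log2 fold change negative for Sema6b (-0.38), Sema6c (-0.19), Sema6a (-0.096) and Sema3e (-0.026). No semaphorin passed in edgeR, and none had an unadjusted p under 0.05. The summed FPKM of all semaphorins was 125, 119 and 93.6 in the Het-labelled libraries and 154, 142 and 134 in the KO-labelled ones. Each KO library thus lay above each Het library, while ephrin-A genes, summed in the same way with Efna5 included, showed the reverse order. The sums were also apart for the B, C and D plexins together, and they overlapped for all other families and classes summed, class 3 and class 4 semaphorins included. No such share was taken for sums over other gene sets. Of single genes, 10.7% of all tested were apart in CPM.

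The secreted class 3 semaphorins were all higher on all libraries, 6 of 6 tested, with a median of 0.27. The sign did not hold for Sema3e without Het replicate 2 (-0.026) or for Sema3a without Het replicate 0. Sema3b, the most abundant semaphorin, was at 120, 96.1 and 86.5 CPM against 190, 110 and 99.4 CPM. Only KO replicate 0 lay above all of the Het-labelled libraries, and the log2 fold change of 0.40 was 0.07 without it. Sema3d was at 17.5 ± 6.24 against 29.1 ± 10.6 CPM (SD, n = 3 each) with overlapping groups (log2 fold change 0.73, SE 0.35; edgeR unadjusted p = 0.0688), and the difference was 1.05 without Het replicate 2 and 0.41 without KO replicate 1. Sema3f was at 45.8, 26.0 and 23.8 CPM against 38, 40.4 and 36.1 CPM, with Het replicate 0 highest. Sema3a, the repellent of tooth nerves, was at 35.4, 47.7 and 46.9 CPM against 46.1, 54.5 and 40.2 CPM. Its log2 fold change was 0.12, and -0.01 without Het replicate 0. Sema3d, Sema3a and Sema3e lie in a row on chromosome 5, with 536466 bases between Sema3d and Sema3a and 422711 between Sema3a and Sema3e. Sema3g was at 0 in all Het-labelled libraries and at 0.558, 0 and 0.761 CPM in the KO-labelled ones. That is 74 counts over the group, at least 18.9-fold above a floor of 3 counts over the Het group, in 2 of the 3 libraries.

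Of the membrane semaphorins, 11 of 13 were higher. Sema5a was at 67.9, 41.3 and 41.2 CPM against 73.3, 86.1 and 63.2 CPM. Only Het replicate 0 reached into the KO range (log2 fold change 0.57, SE 0.25; edgeR unadjusted p = 0.0522). Sema4b was at 5.40, 2.53 and 4.35 CPM against 8.52, 11.6 and 4.49 CPM, with KO replicate 2 inside the Het range (log2 fold change 1.0, SE 0.50; edgeR unadjusted p = 0.0790; 0.67 without KO replicate 1). Sema4d, known as an inhibitor of osteoblast differentiation made by osteoclasts, was at 34.6, 22.2 and 35.7 CPM against 38.5, 38 and 36.8 CPM, apart in CPM by about 1 CPM and overlapping in FPKM. Sema4g, at 4.18, 2.51 and 3.03 CPM against 1.79, 2.25 and 2.21 CPM, and the lipid-anchored Sema7a, under 2 CPM in all libraries, were the semaphorins with lower fitted values. Sema6c was at 31.3, 38.7 and 7.89 CPM against 34.3, 31.0 and 26.6 CPM, where only Het replicate 2 stood apart from the rest. Its log2 fold change of 0.24 became -0.19 without that library.

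Neuropilins and plexins are the receptors of the semaphorins, and neuropilins also bind VEGF. Nrp2 was the more abundant neuropilin, at 51.5, 72.6 and 81.5 CPM against 130, 106 and 66.9 CPM. KO replicate 2 lay inside the Het range and the other 2 KO libraries above it (log2 fold change 0.56, SE 0.28; edgeR unadjusted p = 0.0775; 0.36 without KO replicate 0). Nrp1 was at 14.3, 17.8 and 23.2 CPM against 28.8, 19.0 and 14.3 CPM, which overlapped fully, and its sign turned without KO replicate 0 (-0.13).

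Of the 8 plexins 6 were higher, with a median log2 fold change of 0.22, and 0 passed in edgeR. The A plexins, the usual partners of neuropilins, were split with 2 higher and 2 lower (median -0.017), whereas all 4 of the B, C and D plexins were higher (median 0.36). Plxnb2, the most abundant, was at 135, 138 and 136 CPM against 180, 177 and 124 CPM. The Het libraries were close together, and KO replicate 2 lay below them. Plxnd1, the receptor of semaphorin 3E, was at 12.6, 10.9 and 10.03 CPM against 19.5, 21.2 and 10.8 CPM, with the same library overlapping (log2 fold change 0.62, SE 0.32; edgeR unadjusted p = 0.0901). Plxnc1, the receptor of semaphorin 7A, was at 12.9, 14.2 and 11.3 CPM against 15.5, 15.2 and 23.0 CPM. Its groups were apart in CPM and in FPKM (log2 fold change 0.49, SE 0.28; edgeR unadjusted p = 0.122). Plxna4 had the largest log2 fold change of the plexins, 1.80 (SE 0.80, 95% interval -0.016 to 3.62; edgeR unadjusted p = 0.0517), from 4.54, 3.42 and 0.562 CPM against 7.72, 18.2 and 3.84 CPM. KO replicate 2 overlapped, and the difference was 1.02 without KO replicate 1. Plxna1 was at 67.9, 73.0 and 58.2 CPM against 60.0, 65.6 and 44.8 CPM, a lower fitted value by 0.22 with overlapping groups. Plxnb1 was at 40.1, 20.2 and 45.0 CPM against 27.1, 39.4 and 46.3 CPM, with no direction that held without Het replicate 1.

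**Figure D3:**
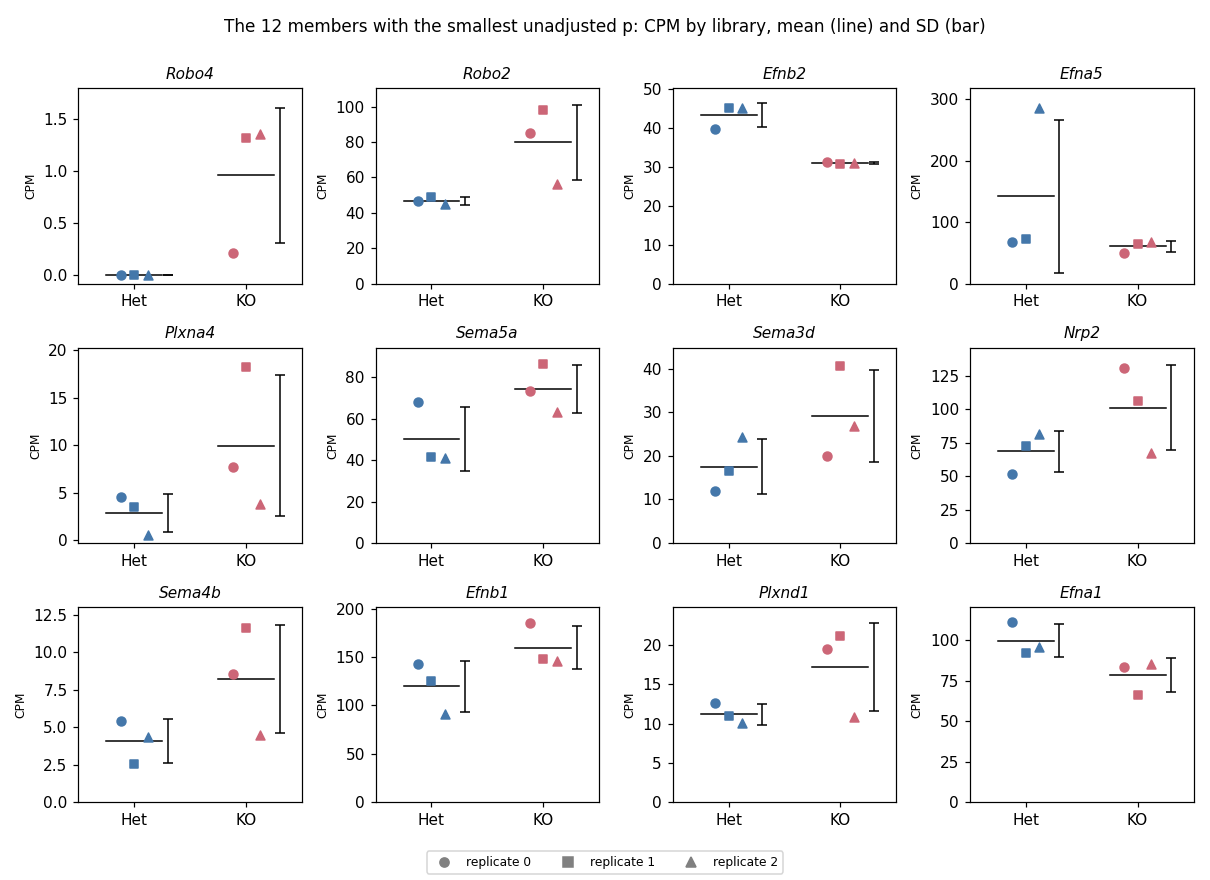
CPM (y axis, starting at or just under 0) in each library by group (x axis) for the 12 members with the smallest unadjusted p in edgeR; points are libraries with the replicate number as shape, lines are means and bars SD (n = 3). Groups are apart for Robo4, Robo2, Efnb2, Efnb1 and Efna1, and the Efna5 difference comes from Het replicate 2 at 285 CPM.

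Slits are secreted ligands and Robos are their immunoglobulin-like receptors. Both tested Slits and 3 of the 4 Robos had higher fitted values in the KO-labelled libraries, and the members with the smallest p were here. Robo2 (chromosome 16, minus strand, 73891839 to 74411825 in mm10) was at 46.5, 49.1 and 44.9 CPM in the Het-labelled libraries and at 85.0, 97.9 and 56.5 CPM in the KO-labelled ones. The Het libraries were close together and all 3 KO libraries lay above them. Mean levels were 46.8 ± 2.16 CPM and 79.8 ± 21.2 CPM (SD, n = 3 each), a log2 fold change of 0.77 (SE 0.23, 95% interval 0.24 to 1.30; edgeR unadjusted p = 0.00951, adjusted p = 0.909; DESeq2 adjusted p = 0.276). In FPKM the groups overlapped, at 5.38, 5.98 and 3.51 against 9.78, 11.7 and 4.38, since KO replicate 2 lay below Het replicates 0 and 1. The 2 scales differed by library: Het replicates 0 and 2 had similar CPM (46.5 and 44.9) but unlike FPKM (5.38 and 3.51). The FPKM overlap may therefore reflect the scale, and this was not tested. DESeq2 called Robo2 without KO replicate 2, its lowest KO-labelled library (adjusted p = 0.0127). It did not call Robo2 without any other library. The DESeq2 adjusted p was 0.245 to 0.333 without each Het library, and 0.9997 and 0.9998 without KO replicates 0 and 1.

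Robo1, which lies 845744 bases from Robo2 on the same chromosome with no protein-coding gene between them, did not share this pattern. It was at 67.3, 76.1 and 83.3 CPM against 58.1, 102 and 73.7 CPM, with a log2 fold change of 0.042 (SE 0.24, 95% interval -0.49 to 0.58). The test of the difference between the genes was not made, and the intervals of the pair overlap. Slit2 was at 26.7, 43.6 and 39.0 CPM against 45.9, 48.2 and 51.5 CPM. Its groups were apart in CPM and overlapped in FPKM (log2 fold change 0.41, SE 0.23; edgeR unadjusted p = 0.106). Slit3, the most abundant Slit with a mean of 18.5 FPKM, was at 81.2, 108 and 62.0 CPM against 127, 117 and 57.9 CPM, with both replicates numbered 2 lowest in their groups. Slit1 had at most 1.5 CPM in any library and 0 in 3 of them.

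Robo4 (chromosome 9, plus strand, 37401897 to 37415115 in mm10), known as the Robo of endothelium, was at 0 in all 3 Het-labelled libraries and had 13, 80 and 71 counts (0.213, 1.31 and 1.35 CPM) in the KO-labelled ones. Over the group this was at least 41.9-fold above a floor of 3 counts over the Het libraries, a limit that covers counting error only. Robo4 passed the filter on low counts through the KO-labelled libraries alone, so its place among the tested members depended on the group where it is high. The DESeq2 adjusted p was 0.0265, and the edgeR adjusted p was 0.661. The DESeq2 call was lost without any one of Het replicate 0 (0.0573), KO replicate 0 (0.103), KO replicate 1 (0.546) or KO replicate 2 (0.559). The endothelial markers summed to the lower values given with Efnb2, and the KO mean was higher for 2 of 7. Kdr averaged 7.21 CPM in the Het-labelled libraries and 3.60 CPM in the KO-labelled ones, and Pecam1 3.88 and 1.07 CPM, both with groups apart. Cdh5 averaged 1.31 and 0.282 CPM, Tie1 1.80 and 0.143 CPM, and Esam 2.56 and 2.29 CPM, with overlapping groups. The higher ones were Tek, at 0.220 and 0.900 CPM, and Emcn, at 0.291 and 0.478 CPM, also overlapping. The part of endothelial cells in the Robo4 counts was not tested. Robo3, whose gene ends 554 bases from the end of Robo4 on the other strand, had 0, 0 and 1.1 CPM against 0.295, 0.361 and 0 CPM, and did not show the same pattern.

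To show the upstream sequence of the members with the smallest p in each direction, the bases before the start sites of Efnb2, Robo2 and Robo4 follow, 5′ to 3′ on the gene's strand. They come from RefSeq's promoter table (GRCm38.p6) at chr8:8661243-8661492 (minus strand), chr16:74411826-74412075 (minus strand) and chr9:37401722-37401896 (plus strand, ending before the GENCODE start). Pth1r signals through cAMP, and TGACG is the core of the element that binds the cAMP-responsive factor CREB, so capitals mark TGACG on the printed strand. The Efnb2 window holds it 110 bases before the start. RefSeq has 3 start sites for Robo2, and the one shown is the innermost, which is also the gene's start in GENCODE. Its window and that of Robo4 hold no TGACG on either strand.
Efnb2: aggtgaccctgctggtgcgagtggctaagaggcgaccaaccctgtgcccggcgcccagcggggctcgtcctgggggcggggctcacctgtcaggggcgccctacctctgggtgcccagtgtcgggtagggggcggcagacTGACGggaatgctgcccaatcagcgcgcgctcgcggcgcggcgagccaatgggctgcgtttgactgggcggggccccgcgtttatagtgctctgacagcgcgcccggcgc
Robo2: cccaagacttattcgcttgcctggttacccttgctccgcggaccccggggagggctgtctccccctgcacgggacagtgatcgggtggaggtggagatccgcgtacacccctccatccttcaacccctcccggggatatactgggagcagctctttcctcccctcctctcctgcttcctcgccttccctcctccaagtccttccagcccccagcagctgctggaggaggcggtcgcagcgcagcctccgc
Robo4: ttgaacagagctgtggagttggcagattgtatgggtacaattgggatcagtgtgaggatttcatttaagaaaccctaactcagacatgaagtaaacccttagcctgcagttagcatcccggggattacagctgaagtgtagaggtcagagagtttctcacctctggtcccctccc
Over the 250 bases upstream, TGACG on either strand was found in 7 of 73 windows of the 57 members with an entry (9.6%), against 5836 of 32851 windows of all genes (17.8%). A match describes the letters only, and does not show binding.

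Netrins are secreted proteins related to laminin, and Unc5 receptors mediate the repulsive response to them. Their median differences were small. Of the 4 netrins 3 were higher (median log2 fold change 0.19) and of the 4 Unc5 receptors 3 were higher (median 0.12), and no member of either family was apart between groups or had an unadjusted p under 0.05 in edgeR. Ntn1 was at 58.8, 56.7 and 71.7 CPM against 71.6, 53.8 and 44.3 CPM, with overlapping groups. Ntn4, a basement membrane netrin, was at 20.4, 14.8 and 17.4 CPM against 22.4, 18.7 and 22.9 CPM. Ntn5 was at 28.8, 16.5 and 10.2 CPM against 28.1, 24.3 and 17.4 CPM. Its log2 fold change of 0.33 was 0.05 without Het replicate 2, and its exons share 519 bases with Sec1 on the other strand. Unc5b, the most abundant of its family, was at 68.2, 64.5 and 63.5 CPM against 77.3, 63.3 and 62.2 CPM. With a log2 fold change of 0.048 and an interval of -0.37 to 0.46, it is among the 3 members for which a change beyond 1.5-fold was outside the interval. Unc5c was at 10.8, 7.27 and 13.5 CPM against 10.8, 12.5 and 13.6 CPM, Unc5d averaged 0.588 FPKM, and Unc5a was at 0.0278 CPM and 0 in Het replicates 1 and 2 and at 1.03 to 4.28 CPM elsewhere.

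**Figure D4:**
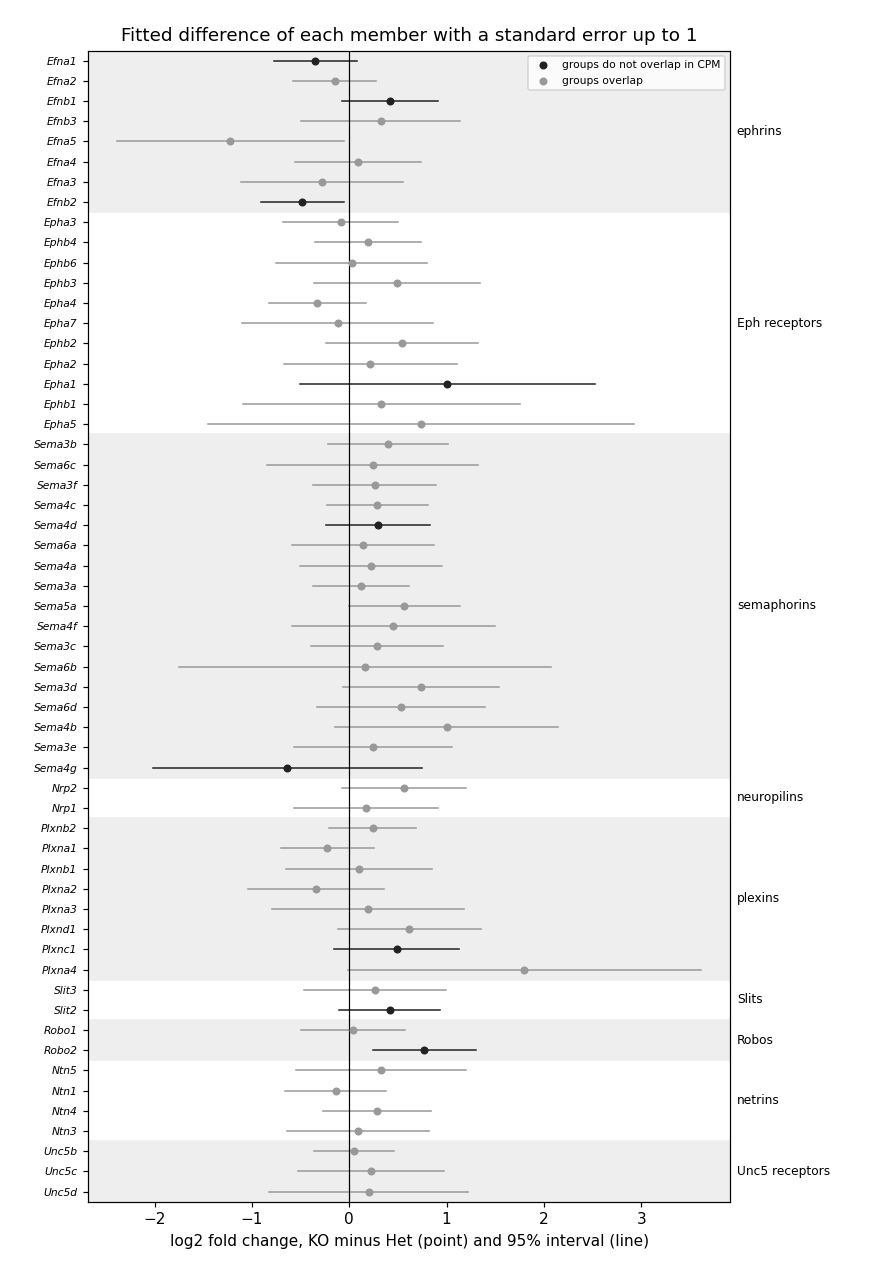
Fitted log2 fold change of the KO-labelled libraries against Het (points) with its 95% interval (lines) for 57 tested members, by family; black marks members whose groups do not overlap in CPM. Ephrin points lie mostly left of 0 and semaphorin points mostly right of it, and intervals of all but Robo2, Efnb2 and Efna5 include 0 among those drawn; 6 members with a standard error above 1 (Epha8, Robo4, Robo3, Unc5a, Sema5b and Sema7a) are not drawn.

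Other genes of these pathways were taken from 2 lists, and their difference from the members was not tested. Of 18 tested co-receptors and other cues, 9 had higher and 9 lower fitted values (median log2 fold change -0.0088). Of 48 tested intracellular effectors, 28 were higher and 20 lower (median 0.029). Without Het replicate 2 the numbers higher were 11 of 20 (55%) and 26 of 48 (54.2%), beside 61.5% of the members in the same fit. Without KO replicate 1 they were 9 of 18 (50%) and 20 of 48 (41.7%), beside 66.2% of the members. In both lists 0 genes passed in edgeR or DESeq2, and 1 gene in each had an unadjusted p under 0.05, in both cases with lower values. The co-receptor gene was Plxdc2, a transmembrane protein with a plexin domain, at 138, 139 and 153 CPM against 108, 118 and 69.3 CPM (log2 fold change -0.54; edgeR unadjusted p = 0.0407). The effector was Rras, a small GTPase that plexins inactivate, at 44.7, 43.0 and 52.8 CPM against 35.7, 28.4 and 34.7 CPM (log2 fold change -0.51; edgeR unadjusted p = 0.035). Both genes were apart between groups. Gpc1, a glypican that binds Slits, was at 511, 370 and 97.0 CPM against 978, 536 and 654 CPM, also apart (log2 fold change 1.15, SE 0.51; 0.72 without Het replicate 2). Neo1, the netrin receptor neogenin, was at 104, 120 and 127 CPM against 167, 201 and 112 CPM (log2 fold change 0.45), whereas Dcc, the other attractive netrin receptor, was between 0.0643 and 0.647 CPM in all libraries. Dpysl2, the effector CRMP2 of semaphorin 3A, was at 341 CPM in Het replicate 2 and 52.9 to 80.6 CPM in the other 5 libraries, so its log2 fold change of -1.32 became -0.057 without that library. Srgap1, a Robo effector, was at 17.7, 24.4 and 20.6 CPM in the KO-labelled libraries and at 6.90, 19.0 and 9.83 CPM in the Het-labelled ones (log2 fold change 0.81).

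Markers of the cells that the sort could hold moved with these groups to different degrees. The 10 mesenchymal and follicle markers, 6 with a higher KO mean, summed to 20857 to 42072 CPM in the Het-labelled libraries and 31030 to 60000 CPM in the KO-labelled ones, and most of the sum was Col1a1 and Col1a2. The other markers were split (means, Het-labelled libraries first). Postn averaged 756 and 525 CPM, Msx1 228 and 166 CPM, Pdgfra 186 and 142 CPM, and Twist1 232 and 172 CPM. These were lower in the KO-labelled libraries, with the groups apart for Twist1, and each was above 100 CPM in all libraries. Higher KO means were found for Pdgfrb (92.2 and 147 CPM), Runx2 (219 and 276 CPM), Pthlh (289 and 317 CPM) and Prrx1 (171 and 174 CPM). The groups overlapped for each of those with higher KO means. Osteoblast markers, 5 of 5 with a higher KO mean, summed to 3698 to 10833 against 10756 to 17760 CPM. Het replicate 2 had the highest sum of its group, but most of the sum was Ibsp in every library. Sp7 (151 CPM), Spp1 (177 CPM) and Ifitm5 were lower in Het replicate 2 than in any other library, whereas Bglap was lowest in Het replicate 1. Spp1 was at 268, 310 and 177 CPM against 473, 580 and 457 CPM, with the groups apart. Its log2 fold change was 0.999 (SE 0.24, edgeR adjusted p = 0.648, DESeq2 adjusted p = 0.0226). The groups overlapped for Ibsp, Ifitm5, Sp7 and Bglap. Markers of neurons, the cells best known for guidance receptors, had a higher KO mean for 5 of 8 and summed to 11.2 to 93.0 against 72.5 to 86.9 CPM, with Het replicate 2 lowest and Nefl and Nefm under 1 CPM in all libraries. Most of that sum was Tubb3. Lower KO means were found for Snap25, Syt1 and Rbfox3, with log2 fold changes of -2.07, -3.38 and -1.07. Their groups overlapped, and the highest value among them was 3.34 CPM (Syt1 in Het replicate 1). Stmn2, a neuronal microtubule regulator, was at 5.60, 3.42 and 4.47 CPM against 16.2, 11.8 and 13.9 CPM, with the groups apart (log2 fold change 1.63, SE 0.35; edgeR adjusted p = 0.634, DESeq2 adjusted p = 0.00229). Schwann cell markers, 2 of 6 with a higher KO mean, summed to 23.9 to 32.0 against 18.6 to 38.7 CPM, with Sox10 under 1 CPM in all libraries. Dental epithelial markers, 2 of 6 with a higher KO mean, summed to 4388 to 8045 against 4797 to 10113 CPM, and leukocyte markers, 5 of 6 with a higher KO mean, to 3.89 to 20.1 against 5.61 to 36.2 CPM. The part of these cell types in the members' differences was not tested, and in bulk RNA fewer cells of a type and less RNA per cell cannot be told apart.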

How the data were processed

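Per the labels' protocols, RNA of 6 libraries went through SMART-Seq amplification for low input and Nextera XT library preparation. The submitters' processing notes name the mm10 genome and HTSeq, DESeq2, Bowtie2 2.2.1, TopHat2 2.0.13, Cuffdiff and Cufflinks, without a role for each or a strand setting. The authors deposited whole-number counts per gene, estimated counts, which were rounded here, and FPKM. Amplified reads are not independent molecules, so floors of 3 counts cover counting error only.

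Groups came from the sample titles. Counts were tested by quasi-likelihood in edgeR 4.0.16 under R 4.3.3 (TMM, filterByExpr, two-sided, Benjamini-Hochberg over 14632 genes, threshold 0.05), with no covariate. Intervals are 95%. DESeq2 1.42.0, RLE size factors, other filters, estimated counts, a replicate block and leaving out each library were alternatives. Scripts were tested on simulated data. Positions are from GENCODE M21 by symbol.

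Members and lists were chosen with earlier results of these data known. Named by rule were members past a threshold, the 3 highest in each family, the 12 with the smallest p, and those at 0 in 1 group; others were chosen after their values were seen.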

Additional observations from a re-analysis of the deposited data

How the results depend on the processing

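In edgeR 0 members passed the adjusted threshold in any alternative run, and the members' median log2 fold change stayed above 0 (0.13 to 0.33 without one library each). Genes called numbered 87 in DESeq2, 1 with edgeR's newer quasi-likelihood method, and 0 to 1 without one library each. DESeq2 fits chosen after seeing the data called 167, 137 and 175 genes without Het replicates 0, 1 and 2, and 48, 49 and 78 without KO replicates 0, 1 and 2. DESeq2 called 1 member on all libraries (Robo4), 1 without Het replicate 0 (Unc5a), 1 without Het replicate 1 (Robo4), 2 without Het replicate 2 (Robo4 and Epha8), 0 without KO replicates 0 or 1, and 1 without KO replicate 2 (Robo2).

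Members with an unadjusted p under 0.05 numbered 4 in edgeR, 7 in DESeq2 and 3 to 10 in edgeR without one library each, and, in DESeq2, 12 without Het replicate 0, 8 without Het replicate 2 and 10 without KO replicate 2. Members with groups apart numbered 10 with all libraries and 13 to 21 without one, the 21 being without Het replicate 0 or without KO replicate 2, where fewer libraries make non-overlap easier. As shares these were 20.3 to 33.3% of the members tested, against 16.8 to 23.8% of all genes in the same fits. Pth1r passed in DESeq2 without Het replicate 2 (log2 fold change 1.05) and without KO replicate 2 (1.22).

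The replicate numbers were not taken to pair the libraries, since same-numbered libraries had correlated deviations of 0.169, 0.075 and 0.069, although each library correlated best with its own number, which is a hint from the data and not the design. With the replicate number as a block, edgeR gave 8 members with an unadjusted p under 0.05. DESeq2 with the block, chosen after seeing the data, called 185 genes and 2 members (Plxna4 and Epha8), gave 11 members an unadjusted p under 0.05, and called Pth1r (0.97). It did not call Robo4 (adjusted p = 0.0624). The block in edgeR turned the sign of Epha7 (0.050), Robo3 (3.25) and Unc5a (3.97).

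The sign of the log2 fold change turned without one library for 27 of 73 genes named. The ranges were -0.34 to 0.13 for Epha3, -0.28 to 0.32 for Ephb6, -0.17 to 0.40 for Epha2, -0.47 to 0.50 for Epha7 and -0.11 to 1.01 for Ephb1. They were -0.20 to 0.23 for Robo1, -1.30 to 6.61 for Robo3, -0.042 to 0.10 for Unc5b, -0.059 to 0.38 for Unc5d and -0.62 to 6.40 for Unc5a. They were -0.33 to 0.0078 for Ntn1, -0.16 to 0.31 for Ntn3, -0.13 to 0.38 for Nrp1, -0.18 to 0.33 for Plxnb1 and -0.20 to 0.55 for Plxna3. They were -0.12 to 0.28 for Efna4 and -0.020 to 0.69 for Efnb3. Among semaphorins they were -0.012 to 0.22 for Sema3a, -0.026 to 0.48 for Sema3e, -0.023 to 0.51 for Sema4a, -0.010 to 0.75 for Sema4f, -0.37 to 1.80 for Sema5b, -0.096 to 0.37 for Sema6a, -0.38 to 0.61 for Sema6b and -0.19 to 0.64 for Sema6c. They were -0.13 to 0.64 for Sdc3 and -0.18 to 0.019 for Gipc1. The cause was not tested. The precision is that of 3 libraries a group.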
